A study of Mus musculus with 8 samples.

Results

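The transcript content of the wild-type mouse heart at E10.5, a stage soon after looping, was described from 4 hearts labelled Dbh+/+, out of 8 hearts in the series. The 4 were taken by that genotype label alone, and the Dbh-/- hearts were not compared with them. Dbh encodes dopamine beta-hydroxylase, the enzyme that turns dopamine into noradrenaline. Each sample was total RNA of 1 isolated heart, taken from embryos matched for age and size after an ultrasound check of the living embryo. The RNA was extracted with Trizol, labelled with biotin and hybridised to an Affymetrix Mouse Genome 430A 2.0 array, a 1-colour array that reads each transcript with sets of short probes. The 4 hearts carried no transgene or drug by their labels, and the strain and sex of the embryos were not stated. The titles carry a number, 570 for the heart called WT 1 here, 569 for WT 2, and 541 for both WT 3 and WT 4; a letter after it divides the hearts the same way, and the meaning of neither is given in the labels.

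At this stage the mouse heart is a looped tube with forming atria and ventricles. Its wall holds beating cardiomyocytes, an inner endocardium, a jelly-filled cushion region that mesenchymal cells invade, and a new outer epicardium, and its lumen holds primitive red blood cells. A whole heart mixes all of these, so in bulk RNA fewer cells of a type and less RNA per cell cannot be told apart. Contraction rests on myosin, actin, tropomyosin and troponin, calcium release and re-uptake by the sarcoplasmic reticulum trigger it, and GATA, T-box, Nkx2 and Mef2 transcription factors drive the genes for all of these.

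The array held 22690 probe sets, of which 64 were controls and 22626 were ranked. Of the ranked probe sets, 20380 carried 1 gene symbol, 691 carried several and 1555 none, and together they named 12393 genes. Each value was a MAS5 signal, a linear intensity, and each came with a detection call: a probe set was called Present where its perfect-match probes exceeded its mismatch probes with a detection p of up to 0.0474, and Absent at a p of 0.0652 or above. A gene took the values of its highest probe set; it was called present where at least 1 of its probe sets was Present in all 4 hearts, absent where every probe set of it was Absent in all 4, and mixed otherwise. Values are given in the order WT 1, WT 2, WT 3, WT 4 or as a mean ± SD over n = 4 hearts. A signal also depends on how well its probes bind, so the ranks below are ranks of signal and no fold is drawn between genes.

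The arrays called between 65.4% and 70.6% of ranked probe sets Present, with backgrounds of 43 to 52 and median signals of 39.5 to 56.9. The 5′/3′ signal ratio of the actin control was 0.527, 0.483, 0.407 and 0.517, lowest in WT 3. WT 3 stood apart from the other hearts: liver transcripts such as Afp, at 6.95, 1.74, 3084 and 26.7, were high there, while many cardiomyocyte transcripts were low. WT 4 stood apart in stress and hypoxia genes and had the lowest median signal. As deposited, 7087 of the 8247 genes Present in at least 3 hearts lay above the mean of the other 3 in WT 1. In WT 4, 1624 did. A highest value in WT 1 or a lowest value in WT 4 is thus common over all genes. Values without WT 3 are given beside the genes and lists that it moved most.

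Of the 22626 probe sets, 13451 (59.4%) were Present in all 4 hearts and 4705 (20.8%) were Absent in all 4. By gene, 7698 of 12393 (62.1%) were present, 2381 (19.2%) absent and 2314 (18.7%) mixed. Without WT 3 the present genes numbered 7775 (62.7%). Present and absent both need every heart to agree, so leaving out any heart can only raise or keep these counts. The probe sets Present in all hearts rose to 13616 without WT 1, 13936 without WT 2, 13600 without WT 3 and 13826 without WT 4. The counts without WT 3 given below are of this kind. The median mean signal was 194 for probe sets Present in all 4 hearts and 3.66 for those Absent in all 4, and the highest among the latter was 93.0. An Absent call is a property of a probe set: of 4956 genes with several probe sets, 639 (12.9%) had 1 that was Present in all hearts and another that was Absent in all.

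The ranking fell slowly at its top. The mean signal was 8196 at rank 1, 5199 at rank 100, 1972 at rank 1000, 339 at rank 5000 and 75.4 at rank 10000. The 100 highest probe sets spanned 0.65 log2 units and held 7.77% ± 0.623 of the summed signal, and the 1000 highest held 43.3%. The 10 highest probe sets together held 0.960% of the summed signal, which is a share of signal and not of transcripts. The highest signal of an array lay between 7407 in WT 2 and 8958 in WT 1. Whether signals near this top are compressed was not tested, so close ranks and small spreads there are those of the signal.

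**Figure D1:**
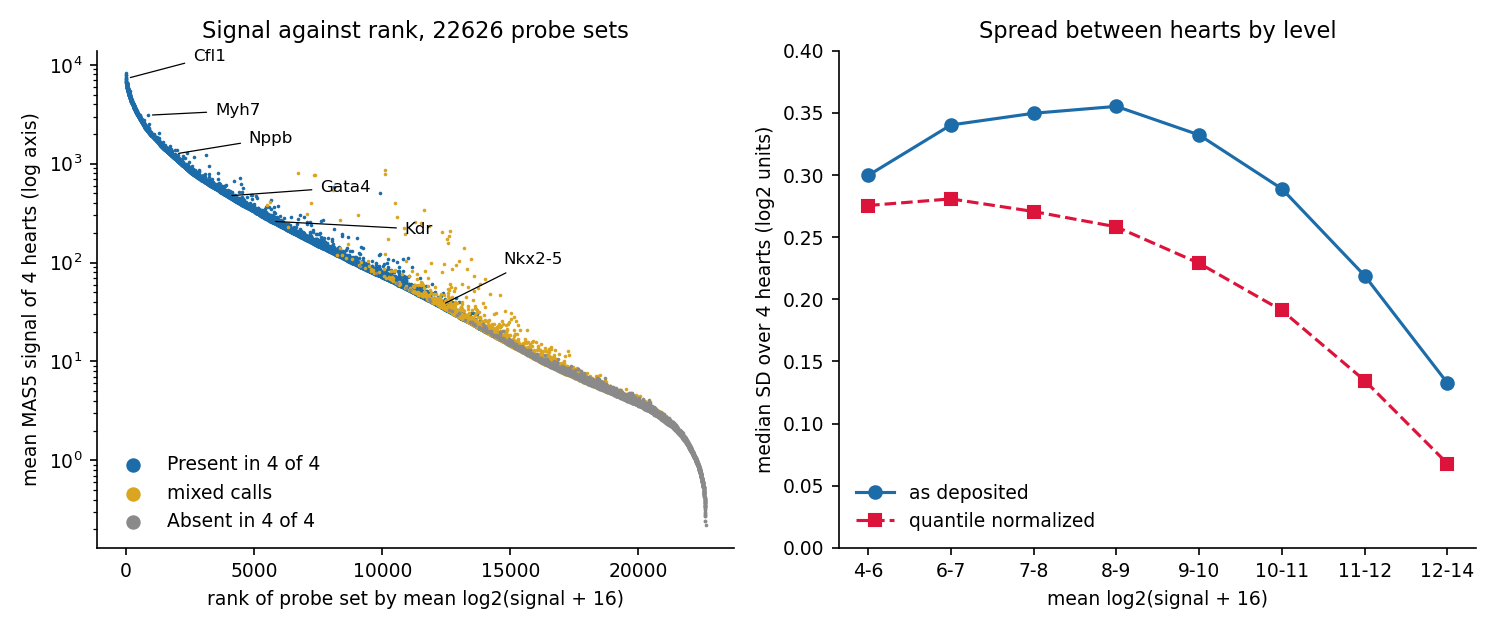
Left, mean MAS5 signal of the 4 hearts (log axis) against rank for each of 22626 probe sets, coloured by detection call, with 6 genes marked at their highest probe set. Right, the median SD over hearts in log2 units by mean level, which was highest, at 0.355, between 8 and 9 and lowest, at 0.133, between 12 and 14 for the values as deposited.

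The top of the ranking was mostly the machinery of translation. Of the 100 highest probe sets, 53 carried the symbol of a cytosolic ribosomal protein, against 202 of all 22626 (0.893%). Only 45 of the 100 carried 1 symbol, 43 carried several and 12 none, and 43 had the suffix that marks probes shared with other transcripts. Their signals can therefore sum several loci. The genes named below come from probe sets with 1 symbol. Some of these probe sets also carry the shared-probe suffix, so their signals can sum several loci too. Among the highest genes named below, it marks Cfl1, Rpl35, Rpl13a, Vdac1, Hmgn1, Rbbp4, Cd24a, Vim and Rps28. Stmn1 and Srsf1 carry another suffix of shared probes. The ranks of all these genes are those of such probe sets.

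Cfl1, the actin-severing protein cofilin, had the highest signal of a named gene, at 7573, 7013, 7420.1 and 6986 (7248 ± 294). Its top probe set had the shared-probe suffix, and its other one read 1764, 1336, 1208 and 1202. Behind it came Rpl35, a protein of the large ribosomal subunit (6715 ± 528), Ywhae, a 14-3-3 adaptor protein (6654 ± 218), and the embryonic beta-like globin Hbb-bh1 (6719 ± 1226). Sod1, the cytosolic superoxide dismutase, stood at 6622 ± 351. The second embryonic beta-like globin, Hbb-y, stood at 6498 ± 849, so 2 of the 8 highest genes encoded globins of primitive red blood cells.

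Among the 40 highest genes, 13 encoded ribosomal proteins, from Rpl35 and Rpl13a (6503 ± 194) down to Fau, whose product is a ubiquitin-like fusion with a small-subunit protein (5177 ± 335), and Rps28 (5146 ± 632). Elongation factors followed closely, with Eef1a1, which brings aminoacyl-tRNA to the ribosome, at 5509 ± 239 and its exchange factor subunit Eef1b2 at 5242 ± 327. Mitochondrial genes were Cox7a2, a cytochrome oxidase subunit (6317 ± 369.6), the outer-membrane pore Vdac1 (6317 ± 363) and the ATP synthase subunit Atp5a1 (5083 ± 529.8). Chromatin proteins were Nap1l1, a histone chaperone (6137 ± 326), Hmgn1, a nucleosome-binding protein (6074 ± 241), and Rbbp4, a histone-binding subunit of several complexes (6009 ± 519). The RNA-processing factors Rbm39 (5269 ± 395) and Srsf1 (5089 ± 650.1) also stood there.

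Cytoskeletal genes of the same 40 were Actb (5841 ± 358), the intermediate filament gene Vim (5259 ± 479.8) and Stmn1, whose product destabilises microtubules (5363 ± 582). The glucose transporter Slc2a1 (5398 ± 449), the G-protein subunit Gnb1 (5599 ± 340.0), the surface glycoprotein Cd24a (5664 ± 798), the cholesterol synthesis enzyme Hmgcs1 (5054 ± 323) and Mrfap1 (6619.9 ± 484) completed the non-muscle part. Heart muscle supplied 4 of the 40: Myl7, Myl4, Tpm1 and Tnnt2, at gene ranks 18, 19, 25 and 36. Without WT 3, 37 of the 40 highest genes and 971 of the 1000 highest stayed in those lists.

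The starts of 6 of these transcripts are shown because the top of the ranking mixes genes used by every cell with genes of muscle and of red cells. Each is 150 bases of the RefSeq promoter table (GRCm38.p6), from 140 bases before the listed start to 10 after, 5′ to 3′ on the gene's own strand. Capitals mark CG pairs and the word TATAAA. Cfl1 lies at chr19:5490315-5490464 (+), Sod1 at chr16:90220622-90220771 (+), Rpl35 at chr2:39005122-39005271 (-), Myl7 at chr11:5898773-5898922 (-), Hbb-y at chr7:103853198-103853347 (-) and Hba-x, the embryonic alpha-like globin, at chr11:32276460-32276609 (+).
Cfl1: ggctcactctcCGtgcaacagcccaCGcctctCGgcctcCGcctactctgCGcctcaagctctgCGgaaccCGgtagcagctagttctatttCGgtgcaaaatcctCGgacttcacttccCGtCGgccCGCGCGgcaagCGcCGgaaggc
Sod1: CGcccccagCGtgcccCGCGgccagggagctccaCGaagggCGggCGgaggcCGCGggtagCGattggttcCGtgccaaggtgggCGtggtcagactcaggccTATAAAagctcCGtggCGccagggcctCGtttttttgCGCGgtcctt
Rpl35: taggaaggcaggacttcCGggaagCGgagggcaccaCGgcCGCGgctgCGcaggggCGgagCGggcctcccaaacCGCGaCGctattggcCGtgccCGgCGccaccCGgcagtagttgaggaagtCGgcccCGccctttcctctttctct
Myl7: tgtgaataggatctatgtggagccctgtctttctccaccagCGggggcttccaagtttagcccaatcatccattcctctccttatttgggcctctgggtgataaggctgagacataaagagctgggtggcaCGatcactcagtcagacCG
Hbb-y: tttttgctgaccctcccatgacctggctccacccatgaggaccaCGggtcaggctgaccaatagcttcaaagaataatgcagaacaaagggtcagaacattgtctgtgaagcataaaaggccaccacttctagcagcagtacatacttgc
Hba-x: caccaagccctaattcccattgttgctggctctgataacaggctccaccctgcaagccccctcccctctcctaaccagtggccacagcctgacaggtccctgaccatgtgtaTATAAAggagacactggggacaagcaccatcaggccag
The printed stretch held 16 CG pairs in Cfl1, 17 in Sod1 and 17 in Rpl35, against 3 in Myl7, 1 in Hbb-y and 0 in Hba-x. TATAAA, searched on the gene's strand from 40 to 15 bases before the start, lay at -37 in Sod1 and at -28 in Hba-x and was not found in the other 4 windows. Over the whole table it was found for 650 of 27025 genes (2.41%). Of the 100 highest genes, 85 matched the table, and their 300-base promoters held a median of 24 CG pairs, with TATAAA in 3 (3.53%). The 6300 present genes that matched, 81.8% of all present genes, had a median of 21.5 CG pairs and TATAAA in 1.32%. The median was 7 CG pairs over all 27025 genes of the table. That table also holds genes that the array does not name, and genes called absent were not counted separately. A link between CG pairs and detection was not tested.

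Cardiac and embryonic isoforms of the sarcomere were present, and several skeletal isoforms were present beside them. Cardiac alpha-myosin heavy chain, Myh6, stood at 5654, 4380.4, 3577 and 4052. Beta-myosin heavy chain, Myh7, stood at 4836, 3654, 306 and 3576. Myh6 was high in all hearts, whereas Myh7 was low in WT 3 alone; without WT 3 its mean was 4022 ± 706 (n = 3). The non-muscle chain Myh9 stood at 4682, 4216, 4082 and 3756, with the hearts close together. Of the 10 measured heavy chains, these 3 were present and 4 were absent: the skeletal chains Myh2, Myh3 and Myh4 and the non-muscle chain Myh14, at mean signals between 3.03 and 6.98.

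All 11 measured myosin light chains were present. The atrial regulatory chain Myl7 read 6491, 5799, 4729 and 5946. Myl4, the atrial and embryonic essential chain, read 6339.8, 5802, 5055 and 5668. This atrial pair differed little between hearts, with log2 SDs of 0.19 and 0.13. The ventricular regulatory chain Myl2 read 7147, 6455, 1728 and 6187. The ventricular essential chain Myl3 read 6741, 5649, 2433 and 5382, and this pair was low in WT 3 alone. Without WT 3, Myl2 was 6596 ± 495 and Myl3 5924 ± 720.3 (n = 3). The fast skeletal chains were present too: Myl1 stood at 1436 ± 402, and Mylpf read 258, 271, 86.1 and 78.3, lower in WT 3 and WT 4 than in the other hearts.

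On the thin filament, Tnnt2, the cardiac troponin that binds tropomyosin, read 6378, 5119, 4025 and 5409.9. The calcium-binding troponin Tnnc1 read 4352, 4049, 2180.2 and 3118. Both inhibitory troponins of the heart were present. Tnni1, the slow skeletal isoform that the fetal heart uses, read 2196, 1659, 612 and 943. Tnni3, the adult cardiac isoform, read 1420.1, 1086, 406 and 995. All 4 troponins were lowest in WT 3. The slow skeletal Tnnt1 read 625, 375, 176 and 182, and the fast skeletal Tnni2 (125 ± 65.3) and Tnnt3 (39.9 ± 16.7) were present as well. The fast skeletal calcium-binding troponin Tnnc2 was the only one of 8 measured troponin genes called absent (4.64 ± 2.57).

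Cardiac alpha-actin, Actc1, read 5463, 4797, 3938 and 4858. The smooth muscle actin Acta2, an early marker of heart muscle in the embryo, read 4442, 4072, 3034 and 3845. Tpm1, the main tropomyosin of heart muscle, read 6612, 5857, 4397 and 5637. WT 3 had the lowest value for all 3. Skeletal Acta1 was present at 391 ± 143, and the enteric smooth muscle actin Actg2 was the only one of 10 measured actins and tropomyosins called absent.

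Of 16 measured Z-disc and M-band genes, 14 were present. Ldb3, a Z-disc PDZ protein, stood at 2999.7 ± 768, Csrp3, the muscle LIM protein, at 2555 ± 735, the giant spring protein gene Ttn at 2399 ± 888, and the small heat shock protein gene Cryab at 2269 ± 839. Mybpc3, cardiac myosin-binding protein C, read 1947, 1888, 486 and 1254. It was lowest in WT 3. Myom2, an M-band protein, was absent (2.68 ± 3.31).

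**Figure D2:**
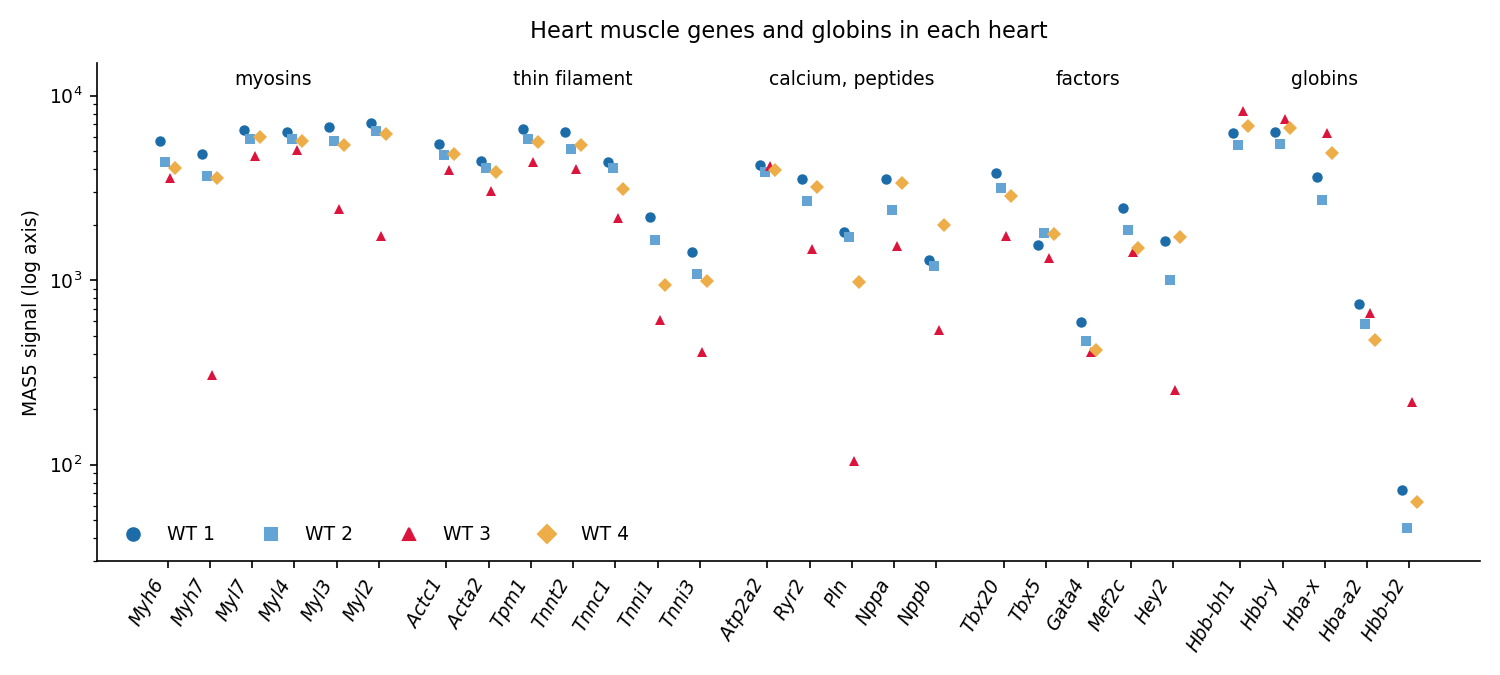
MAS5 signal (log axis) of 28 heart muscle, transcription factor and globin genes in each of the 4 hearts, 1 point a heart. Myh7, Pln and Hey2 show WT 3 far below the other hearts, at 306, 105 and 252, while Atp2a2 lay between 3859 and 4214 in all 4.

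Calcium handling centred on the genes of the cardiac sarcoplasmic reticulum. Atp2a2, the pump SERCA2, read 4214, 3859, 4161 and 3949.8, and these values lay within a log2 SD of 0.06. The release channel Ryr2 read 3517, 2671, 1482 and 3193 and was lowest in WT 3. Calr, a calcium-binding chaperone of the endoplasmic reticulum, read 4358, 3392, 3650.1 and 3577. Phospholamban, Pln, the inhibitor of the pump, read 1829, 1725, 105 and 983, with a log2 SD of 1.85, since WT 3 was far below the other hearts; without WT 3 it was 1513 ± 461 (n = 3). Of 16 measured genes 8 were present and 3 were absent: the sodium-calcium exchangers Slc8a2 and Slc8a3 and the type 3 inositol trisphosphate receptor Itpr3. The cardiac exchanger Slc8a1 was present at 116 ± 51.9, and the skeletal forms Ryr1 (15.3 ± 6.44) and Atp2a1 (48.3 ± 18.0) had mixed calls.

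Ion channel transcripts were seldom present. Of 19 measured, 5 were present, 7 absent and 7 mixed, where 62.1% of all genes were present. The L-type calcium channel subunit Cacna1c read 1236, 739.8, 450.0 and 1219. A related L-type subunit, Cacna1d, read 1561, 835, 497 and 567, and both were highest in WT 1 and lowest in WT 3. The T-type channel Cacna1h stood at 115 ± 50.4 and the potassium channel Kcnh2 at 89.3 ± 32.1. Absent channels were the T-type Cacna1g, the pacemaker channels Hcn2 and Hcn3, and the potassium channels Kcnj8, Kcnj11, Kcnj12 and Kcnd3. Among connexins, which form gap junctions, Gja1 was present at 3938, 3331, 2974 and 3141. Gjc1, the connexin of early heart muscle, was present at 392, 293, 241 and 229.7. Gja5, the atrial and conduction connexin, had mixed calls at 13.4 ± 4.87, and Gjd2 was absent. Of the 7 measured connexins 2 were present and 1 was absent over the 4 hearts, and 3 and 3 without WT 3. Both counts can only rise or stay when a heart is left out.

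Nppa, the atrial natriuretic peptide of the forming chambers, read 3529, 2389.8, 1529 and 3374. Nppb read 1288, 1188, 540.3 and 1992, and both peptides were lowest in WT 3; without it Nppa was 3098 ± 618 (n = 3). The clearance receptor Npr3 stood at 669.7 ± 243. The processing protease Corin read 190.2, 207, 167 and 183, with little spread. The receptor Npr1 and the C-type peptide Nppc were the 2 absent members of 7 measured, at 3.16 ± 4.37 and 10.9 ± 6.25.

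Groups of cardiac transcription factors differed in how many members were present. Over the 4 hearts 46.2% of T-box genes, 61.5% of the other cardiac factors and every GATA and FOG gene measured were present, beside 62.1% of all genes. Tbx20, needed for chamber growth, read 3820.4, 3170.4, 1731 and 2844. Tbx5, a factor of atria and left ventricle, read 1557, 1802, 1327 and 1769. WT 3 was lowest for both, by less for Tbx5. Tbx3, a factor of the conduction system and cushions, stood at 535 ± 214 and Tbx18, a factor of epicardium and sinus horns, at 426 ± 169. Of 13 measured T-box genes 6 were present and 4 were absent: Eomes, Tbx6, Tbx15 and Tbx21, known from gastrulation, somites, skeleton and lymphocytes. Without WT 3, 6 were present and 6 absent. Tbx2, a repressor of chamber genes in the atrioventricular canal, was present at 38.4 ± 21.8.

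All 8 measured GATA and FOG genes were present. Gata4, which binds many cardiac promoters, read 596, 466, 409 and 419. Its cofactor Zfpm2 read 454, 314, 422 and 536. Gata6, its close relative, read 498, 430.4, 309.6 and 352. Gata4 and Gata6 were highest in WT 1 and lowest in WT 3, whereas Zfpm2 was highest in WT 4. In WT 1 the 8 genes lay a median of 0.50 log2 units above the mean of the other hearts as deposited. This was 0.32 over all 8247 genes Present in at least 3 hearts. After quantile normalization the medians were 0.18 and 0.03. Gata2, a factor of endothelium and blood, stood at 386 ± 102. The erythroid factor Gata1 read 43.7, 38.0, 308 and 114 and was highest in WT 3, the heart with the highest erythroid signals; without it the mean was 65.2 ± 42.1 (n = 3).

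Of 26 other cardiac factors measured, 16 were present, and 18 without WT 3. Myocd, the myocardin coactivator of serum response factor, stood at 2323 ± 959.8. Mef2c, a factor of muscle differentiation, read 2477, 1877, 1428 and 1495. The Notch target Hey1 read 1499, 1106, 886 and 1221. Hey2, which marks compact ventricular wall, read 1635, 999, 252 and 1709 and was low in WT 3, with a mean of 1448 ± 390.1 without it. Nkx2-5, a defining marker of heart muscle, was called Present in all hearts, but its probe set read only 50.8, 51.8, 18.1 and 28.6. Hand1 stood at 104 ± 69.9 and Isl1, a marker of the second heart field, at 779 ± 634, and Hand2 had mixed calls at 29.3 ± 11.1. Absent members were Nkx2-6, Mef2b and Irx1.

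Few Hox genes, which pattern the body axis, were present in every heart. Of 31 measured, 6 (19.4%) were present, 11 absent and 14 mixed. Hoxc4 ranked highest, at 62.8, 86.9, 850.3 and 67.2. Hoxa3 read 96.8, 61.7, 405 and 92.5. Hoxb4 read 13.8, 70.5, 245 and 30.5. These 3 were higher in WT 3 than in any other heart, and Hoxb3 followed at 62.7 ± 37.2. Members absent in all 4 hearts were Hoxc5, Hoxb6, Hoxb7, Hoxb9, Hoxd1, Hoxa11, Hoxd11, Hoxd12, Hoxa13, Hoxb13 and Hoxd13. Without WT 3, 6 of the 31 were present and 15 absent, and the means were 72.3 ± 12.8 for Hoxc4, 83.6 ± 19.1 for Hoxa3 and 38.3 ± 29.1 for Hoxb4 (n = 3).

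**Figure D3:**
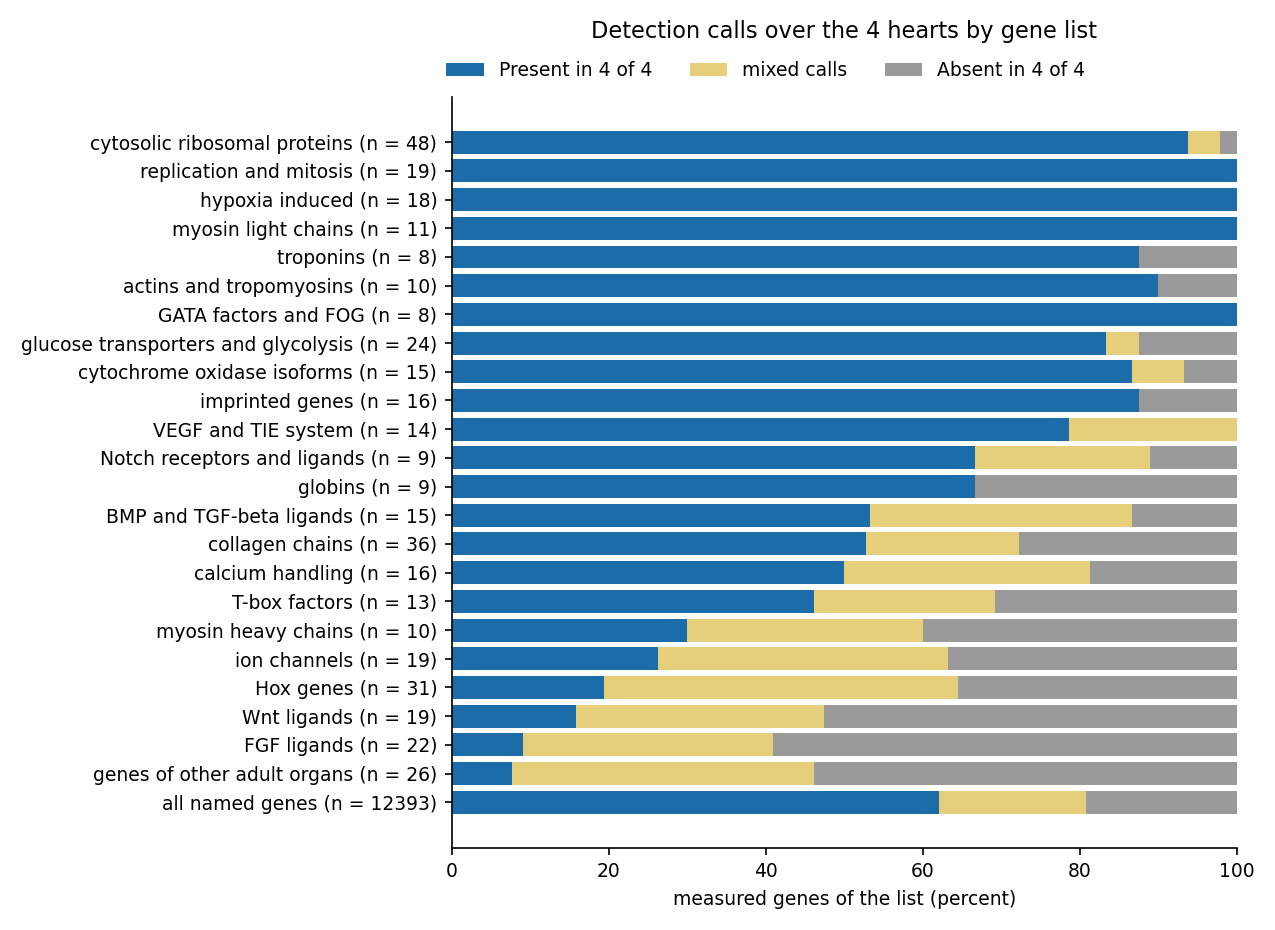
Share of the measured genes of each list (percent, horizontal) called present, mixed or absent over the 4 hearts, with the number measured beside each list and all named genes at the bottom. Replication genes, light chains, GATA and hypoxia genes were present throughout, while 2 of 22 FGF ligands, 3 of 19 Wnt ligands and 6 of 31 Hox genes were.

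Few FGF and Wnt ligands were present in every heart. Of 22 measured FGF ligands only Fgf13, an intracellular family member that binds sodium channels (305 ± 135), and Fgf1 (52.0 ± 30.8) were present, and 13 were absent. Fgf9, an epicardial and endocardial signal to the myocardium, had mixed calls at 58.4, 34.4, 72.5 and 122. The absent ligands were Fgf2, Fgf3, Fgf5, Fgf6, Fgf7, Fgf8, Fgf10, Fgf15, Fgf16, Fgf17, Fgf20, Fgf21 and Fgf22. Of the 4 FGF receptors 3 were present: Fgfr2 at 989.8 ± 432, Fgfr1 at 62.9 ± 16.8 and Fgfr3 at 43.3 ± 19.3.

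Of 19 Wnt ligands, 3 were present: Wnt5a, a non-canonical ligand needed in the outflow tract (801, 589.9, 621 and 426), Wnt2 (43.5 ± 16.4) and Wnt5b (40.9 ± 24.1). Another 10 were absent: Wnt1, Wnt2b, Wnt3a, Wnt7b, Wnt8a, Wnt8b, Wnt9b, Wnt10a, Wnt10b and Wnt16. Without WT 3, 3 were present and 13 absent. Among 15 BMP and TGF-beta ligands, 8 were present. Tgfb2, which drives cushion mesenchyme formation, read 2838, 2531, 2458 and 1603. Bmp2, a myocardial signal to the cushions, read 408, 368, 255 and 322. Bmp7 stood at 383 ± 189 and Bmp5 at 181 ± 45.7, the latter lowest in WT 3. Bmp10, a ligand known from trabecular myocardium at this stage, was Absent in all 4 hearts at 0.822, 2.98, 6.65 and 0.516, as was Lefty1.

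Receptors of the endothelium were well represented. Nrp1, a coreceptor for VEGF and semaphorins, read 3231, 3038, 2719 and 2959. Tek, the angiopoietin receptor, read 2034, 1683, 1363 and 1520.1. The VEGF receptor Flt1 read 983, 732, 795 and 1372. Of the 14 VEGF and TIE genes 11 were present, among them Kdr, the main signalling receptor for VEGF. It read 239, 243, 269.6 and 296, and the lymphatic ligand Vegfc stood at 279.9 ± 80.5. Notch2 read 3410.1, 2359.7, 3315 and 2496, Notch1, the endocardial receptor, stood at 569.7 ± 152 and Notch3 at 513 ± 147, and Dll3 was the only one of 9 called absent. In the neuregulin family Erbb3 (252 ± 108), Egfr (131 ± 17.0) and Erbb2 (78.2 ± 22.1) were present, while Erbb4, the myocardial neuregulin receptor, was Absent at 3.27, 4.49, 11.6 and 9.67, as was Nrg3. The endothelin-converting enzyme Ece1 stood at 1127 ± 238, the receptor Ednrb at 138 ± 28.2 and the ligand Edn1 at 89.7 ± 18.6.

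The IGF axis was present through its fetal ligand and the proteins that bind it. Igf2, the paternally expressed fetal growth factor, read 5191, 4344, 4265 and 4105. The binding protein Igfbp5 read 4131, 3727, 3316 and 3199. Igf2r, the receptor that removes Igf2, read 3449.8, 2669, 1962 and 2749. Of 13 measured members 8 were present, and Igfbp6 was absent. Imprinted genes, which are read from 1 parental allele, were present for 14 of 16: Grb10, a growth-inhibiting adaptor, at 5033 ± 365, Peg3 at 4082 ± 364 and Plagl1 at 3792 ± 343 stood beside Igf2. Snrpn and Phlda2 were absent.

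Among probe sets with 1 symbol, embryonic globins outranked adult ones. Hbb-bh1 read 6269.8, 5402, 8313 and 6892. Hbb-y read 6343, 5452, 7501 and 6694. Hba-x, which pairs with them in embryonic haemoglobin, read 3610.1, 2706, 6252 and 4889. All 3 were highest in WT 3, next highest in WT 4 and lowest in WT 2. The adult alpha gene Hba-a2 read 746, 577, 663 and 476 at its highest probe set with 1 symbol, which was highest in WT 1. The adult beta gene Hbb-b2 read 73.3, 45.6, 218 and 62.6 and, like the embryonic globins, was highest in WT 3. The probe set of Hba-a1, a near-identical copy of Hba-a2, was Absent at 0.379, 4.40, 0.197 and 8.55, so the split between the copies is uncertain. Probe sets that carry several symbols were not read for single genes. The level of adult alpha globin and its order over the hearts are therefore uncertain too. Myoglobin, Mb, the oxygen store of muscle, was present at 88.1, 56.5, 18.6 and 66.8, and neuroglobin and cytoglobin (Ngb, Cygb) were absent.

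Of the 48 measured cytosolic ribosomal protein genes 45 were present. Their median log2 SD over hearts was 0.170, against 0.323 over the 8247 genes Present in at least 3 hearts. Their median gene rank was 87.5, and the median SD of all probe sets between 12 and 14 log2 units was 0.133. A difference in spread from genes of the same level was not tested. Rpl3l, a form known from adult skeletal and heart muscle, was absent (3.98 ± 4.12). Of 24 measured genes of glucose uptake and glycolysis 20 were present, with Pgk1 at 4641 ± 385, Ldha at 3718 ± 345 and Pgam1 at 3665 ± 359.9 after Slc2a1. The 3 absent ones were the germ cell forms Pgk2, Gapdhs and Ldhc.

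Cytochrome oxidase subunits were present for 13 of 15 genes. After Cox7a2 came Cox5b (3631 ± 627), Cox6a1 (2902 ± 629) and Cox6b1 (2663 ± 714). Cox6a2 and Cox7a1, the forms of heart and skeletal muscle, were present at 741 ± 232 and 244 ± 121, and Cox8c was absent. Creatine kinase was represented by the brain form Ckb (318 ± 142), with the muscle form Ckm absent at 2.92 ± 1.98. Fatty acid binding proteins Fabp5 (2559 ± 558) and Fabp3, the heart form (2428, 2037, 563 and 1566), and the dehydrogenase Acadl (445 ± 166) were present.

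Genes of dividing cells were detected throughout. All 19 measured replication and mitosis genes were present, led by the ribonucleotide reductase subunit Rrm2 (4119 ± 494), the mitotic regulator Birc5 (3204 ± 594), topoisomerase Top2a (2269.9 ± 299.7) and the polymerase clamp Pcna (2155 ± 569). Of 18 cyclins, kinases and inhibitors 14 were present, with Ccnd2 at 3507 ± 637, Cdk4 at 1548 ± 332, Ccnd1 at 1411 ± 708 and Ccna2 at 1235 ± 307. Absent members were the germ cell cyclin Ccna1, Cdk6 and the senescence inhibitor Cdkn2a. All 19 replication genes were higher in WT 1 and lower in WT 4 than the mean of the other 3 as deposited, where 7087 of all 8247 genes were higher in WT 1 and 1624 in WT 4. After quantile normalization, which gives every array the same distribution, their median difference was 0.01 log2 units in WT 1 and -0.27 in WT 4.

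Cells of the wall were each represented by their markers. All 7 cardiomyocyte and all 10 endothelial and endocardial markers were present, the latter including Emcn (384 ± 58.1) and Nfatc1, a factor of the endocardium (555 ± 244). Of 11 cushion markers 9 were present, with the matrix proteoglycan Vcan at 3552 ± 973, Sox9 at 731 ± 187 and Twist1 at 514 ± 194. Epicardial markers were present for 6 of 7, and Msln was absent. Wt1, a factor of the epicardium, read 577, 511, 544 and 661. Bnc1 stood at 363 ± 73.6 and Upk3b at 346 ± 31.1, also with little spread. Of 36 collagen chains 19 were present and 10 absent, led by Col1a1 (2114 ± 737), Col3a1 (1120.4 ± 449) and the basement membrane chains Col4a5 (1092 ± 318) and Col4a1 (1069 ± 336).

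Markers of tissues outside the heart were rarer. Of 26 genes known from other adult organs 2 were present, Mbp (81.7 ± 23.3) and Krt10 (44.7 ± 12.5), and 14 were absent. Of 6 branchial and skeletal muscle markers none was present. Of 10 neuron and neural crest markers 3 were present, among them Nefl (79.8 ± 21.2). Of 9 macrophage and leukocyte markers Mrc1 (57.9, 21.6, 314 and 27.2) and Lyz2 (45.4 ± 22.7) were present. Liver markers were present for 2 of 8, Apoa2 and Ttr, with all but WT 3 at low signals.

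Transcripts for making noradrenaline were incomplete. Dbh itself was Absent in all 4 wild-type hearts, at 4.09, 10.9, 0.642 and 0.605, so these arrays gave no positive reading of the gene that the genotype label names. Th, the enzyme of the first step, and Slc6a2, the noradrenaline transporter, were Absent too, at 3.71 ± 3.89 and 7.35 ± 6.18. Ddc, which makes dopamine from DOPA, was present at 316 ± 132 and was lowest in WT 4. Maoa, which degrades catecholamines, was present at 104, 107, 122 and 41.5 and was also lowest in WT 4. Gch1, which makes the cofactor of Th, stood at 33.3 ± 19.5. Pnmt, which turns noradrenaline into adrenaline and is known from the early mouse heart, was Present in all 4 hearts at 23.7 ± 3.70. Both adrenergic receptors measured and named, Adra1b and Adra2c, were absent. In the retinoid pathway 7 of 16 genes were present, with the receptor Rxra at 370.0 ± 105 and the enzyme Aldh1a1 at 258 ± 48.4.

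The 4 hearts ranked transcripts in much the same order. Over the 14625 probe sets Present in at least 3 hearts, Pearson correlations of log2(signal + 16) ran from 0.955 for WT 3 and WT 4 to 0.984 for WT 1 and WT 2, and Spearman correlations from 0.947 to 0.981. These points share arrays and probes and are given as a description. Between 2.25% of probe sets (WT 1 and WT 2) and 10.6% (WT 1 and WT 4) lay over 1 log2 unit apart. After quantile normalization the range was 1.05% to 7.49%, with WT 3 and WT 4 furthest apart. The 2 hearts that share the title number 541 were thus the least alike pair in correlation.

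**Figure D4:**
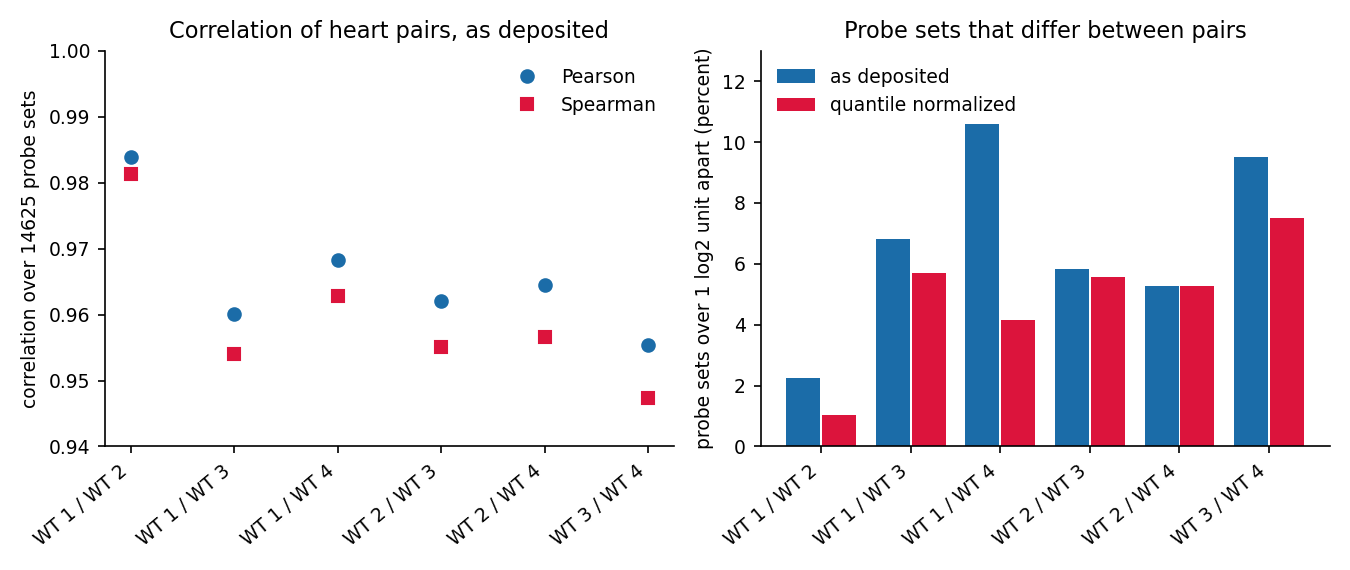
Left, Pearson and Spearman correlations of log2(signal + 16) for each of the 6 pairs of hearts over 14625 probe sets, on an axis that starts at 0.94. Right, the percent of those probe sets over 1 log2 unit apart for each pair, as deposited and after quantile normalization; WT 1 and WT 2 are lowest in both.

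The lists of highest probe sets overlapped in the same way. Each heart's own 100 highest shared 78 probe sets between WT 3 and WT 4 and 88 between WT 1 and WT 2, and 69 were among the 100 highest of all 4 hearts. Detection calls were identical in all hearts for 18156 probe sets (80.2%). Probe sets called Present in 1 heart and Absent in the other 3 numbered 338 for WT 1, 260 for WT 2, 623 for WT 3 and 381 for WT 4.

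The median SD over the 4 hearts was 0.319 log2 units as deposited and 0.249 after quantile normalization, and 186 probe sets (1.27%) had an SD over 1. Among genes with a mean signal of at least 200, Sar1b, a GTPase of vesicle budding, varied least as deposited, at 819, 797, 800.0 and 784 (log2 SD 0.03). Rpl13a, the RNA polymerase subunit Polr2g (1179 ± 38.6), the replication origin protein Orc3 (644 ± 21.6), D230025D16Rik (226 ± 7.86), Ywhae, Ccdc47 (2524 ± 92.9), Rps3a1 (5595 ± 213), Hmgn1 and Cfl1 followed. Each of these had a log2 SD between 0.03 and 0.06 as deposited, and 5 of these 10 genes were also among the 40 highest. After quantile normalization those 5 had SDs between 0.039 and 0.063, where the median of probe sets between 12 and 14 log2 units was 0.068. The SD of the other genes rose, to 0.197 for Sar1b, 0.175 for Polr2g, 0.198 for Orc3, 0.204 for D230025D16Rik and 0.131 for Ccdc47. Their place among the least variable thus depends on the scaling.

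The most variable transcripts fell into recognisable groups. Sex-linked genes were the clearest: Xist, the RNA that silences 1 X chromosome, read 0.343, 1267, 1952 and 26.4. The Y-linked Eif2s3y read 1615, 4.80, 0.618 and 1453. Xist was thus high in WT 2 and WT 3, and Eif2s3y in WT 1 and WT 4. The Y-linked genes Kdm5d (82.8 ± 91.8) and Uty (15.8 ± 18.0) split the hearts the same way as Eif2s3y. Ctr9, a subunit of a transcription elongation complex, read 37.2, 1400.1, 2404 and 1049 at its highest probe set, low in WT 1 alone, while its other 3 probe sets stayed between 19.7 and 128 in every heart.

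WT 3 and WT 4 differed most from the rest, in an order that depended on the scaling. As deposited, 4.58% of probe sets lay over 1 log2 unit from the mean of the other 3 hearts in WT 3 and 4.99% in WT 4, against 2.15% in WT 1 and 1.58% in WT 2. After quantile normalization the shares were 4.62% in WT 3, 3.28% in WT 4, 1.07% in WT 1 and 1.44% in WT 2. The median absolute deviation was larger in WT 4 than in WT 3 under both, at 0.363 against 0.254 log2 units as deposited and 0.254 against 0.241 after quantile normalization. Alpha-fetoprotein, Afp, gave the greatest deviation of any named gene in WT 3, at 6.82 log2 units. Ttr, the thyroxine carrier, read 17.7, 12.6, 1964 and 17.6. The apolipoprotein Apoa2 read 62.9, 30.3, 2177 and 31.3. WT 3 was far above the other hearts for each, and the same held for albumin and a liver factor. Albumin, Alb, read 7.65, 5.35, 675 and 0.671. Hnf4a, a liver and endoderm factor, stood at 913 in WT 3 with a highest other heart at 14.4.

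Other secreted liver proteins were also high in WT 3, but they were named for their deviation there or their spread over hearts. Their agreement thus follows from that choice. Ambp, Itih2 and Serpina6 were Present in WT 3 alone. Ambp, a plasma protein precursor, read 12.1, 1.67, 1351 and 2.97. Serpina1b, an antitrypsin, read 0.350, 0.344, 829 and 6.98. Itih2, which binds hyaluronan, read 2.00, 1.81, 793 and 10.3. Serpina6, the corticosteroid carrier, stood at 731 in WT 3 with a highest other heart at 5.83. Apom stood at 1110.4 against 26.4, Igfbp1 at 842 against 28.2 and Rbp4, the retinol carrier, at 721 against 32.5. The summed signal of the 8 liver and endoderm markers was 146 in WT 1, 66.8 in WT 2, 9727 in WT 3 and 107 in WT 4. Without WT 3, the means were 11.8 ± 13.2 for Afp and 41.5 ± 18.5 for Apoa2 (n = 3).

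Red cell and positional genes were high in WT 3 as well. All 8 erythroid markers were above the mean of the other 3 hearts there, where 4896 of all 8247 genes were, with a median log2 difference of 1.37 after quantile normalization, and their summed signal was 17813, 14378, 26196 and 21428. Alas2, the first enzyme of erythroid haem synthesis, read 94.2, 44.8, 629 and 259. The red cell anion exchanger Slc4a1 read 1393, 686, 2839 and 2439, and both were lowest in WT 2. All 8 Hox genes Present in at least 3 hearts were above the mean of the others, with a median log2 difference of 0.89 after quantile normalization. Macrophage and leukocyte markers were divided: of 3 Present in at least 3 hearts, 2 were above the mean of the others in WT 3 and Lyz2 was below it. The complement gene C1qb, with mixed calls, read 33.6, 6.42, 277 and 5.10. The retinoid-binding protein Crabp1 read 130.1, 156, 1283 and 14.6. Its relative Crabp2 read 199, 162, 859 and 18.9, and both were highest in WT 3 and lowest in WT 4.

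Most lists of heart muscle genes were low in WT 3, by unequal amounts. The median log2 difference from the other hearts, after quantile normalization, was -1.54 over 14 Z-disc and M-band genes, -0.88 over 7 troponins, -0.88 over 18 other cardiac factors and -0.72 over 11 calcium handling genes, beside -0.01 over all 8247 genes. It was -0.46 over 11 myosin light chains, -0.45 over 3 heavy chains, -0.42 over 9 actins and tropomyosins, -0.23 over 8 GATA and FOG genes and -0.06 over 6 T-box factors. As deposited, none of the 14 Z-disc or 7 troponin genes was above the mean of the other hearts, where 4896 of all 8247 genes were. Replication genes did not share this, at a median of 0.25. The lower 5′/3′ ratios of WT 3 (0.407 for actin and 0.694 for Gapdh), its liver and red cell signals and its low heart muscle signals were all seen in the same heart, and the part of each in the others was not tested.

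**Figure D5:**
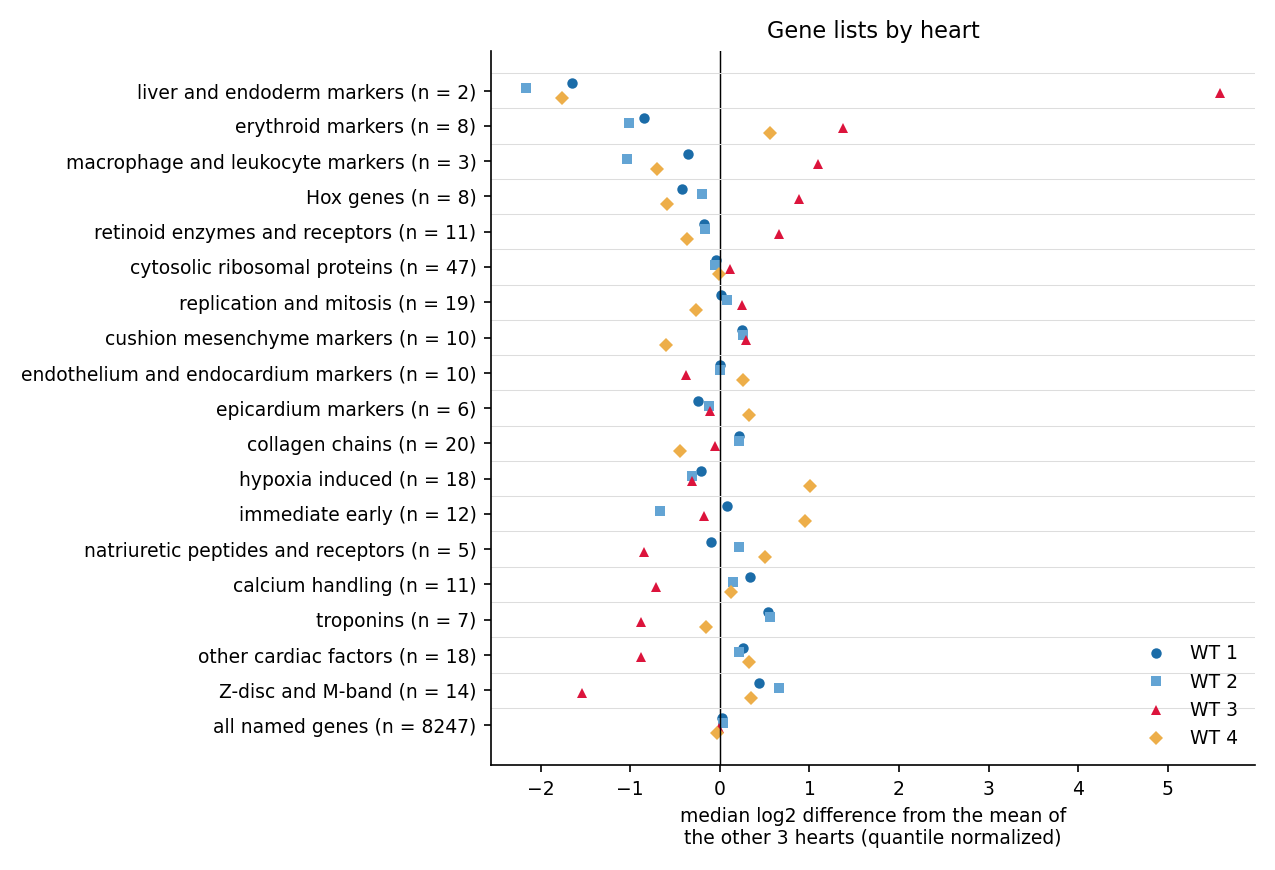
Median log2 difference of each heart from the mean of the other 3, after quantile normalization, for 18 gene lists and all named genes (horizontal axis, 1 symbol a heart; n is the number of genes Present in at least 3 hearts). Liver markers (n = 2, Ttr and Apoa2) lie at 5.58 in WT 3 and Z-disc genes (n = 14) at -1.54, while hypoxia genes (n = 18) lie at 1.005 in WT 4.

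WT 4 was marked by hypoxia and immediate early genes. All 18 genes of the hypoxia list were above the mean of the other 3 hearts in WT 4, where 1624 of all 8247 genes were, with a median difference of 1.005 log2 units after quantile normalization. Vegfa, the hypoxia-induced angiogenic factor, read 229, 95.1, 233 and 736. The stress gene Ndrg1 read 60.6, 67.5, 209 and 701. The transcriptional repressor Bhlhe40 read 208, 90.8, 191 and 1217. WT 4 was highest for all 3, and Ndrg1 was also higher in WT 3 than in WT 1 and WT 2. Of 12 immediate early genes Present in at least 3 hearts 8 were above the mean of the other hearts, with a median difference of 0.95.

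Fos, a subunit of the AP-1 factor, read 786, 164, 439 and 2379. The zinc finger factor Egr1 read 2695, 656, 2236 and 4540.4. Its relative Egr2 read 76.5, 13.2, 87.0 and 525. WT 2 was lowest and WT 4 highest for these 3, and WT 1 and WT 3 lay between. Jund (2163 ± 409.7), Jun (1355 ± 461) and Dusp1 (860.1 ± 389) varied less. The inducible heat shock gene Hspa1b read 197, 155, 399.6 and 1736 and was high in WT 4. Its constitutive relative Hspa8 read 5061, 4366, 5124 and 4174 at its highest probe set and stayed close there in all hearts. Another probe set of Hspa8 read 77.0, 63.7, 354 and 277 and was higher in WT 3 and WT 4. How each heart was handled between the ultrasound and lysis is not given in the labels, and its part in these genes was not tested.

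Mesenchymal and matrix genes were low in WT 4. The median difference was -0.61 over 10 cushion markers and -0.45 over 20 collagen chains. Prrx1, a mesenchymal homeobox gene, read 135, 136, 588 and 11.5. Tnc, the matrix protein tenascin C, read 498, 861, 515 and 50.4. The fibrillar collagen Col3a1 read 1429, 1309, 1290.4 and 454. WT 4 was lowest for all 3. The Wnt-binding protein Sfrp2 read 172, 199, 768 and 26.5. The tight junction gene Cldn6 read 95.9, 133, 494 and 8.61. These were also lowest in WT 4 but highest in WT 3, and the sialyltransferase St8sia3, at 14.1, 1.53, 212 and 12.7, was high in WT 3 alone.

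WT 1 and WT 2 differed from the rest in fewer genes. In WT 1 the surface glycoprotein Cd200 read 521, 144, 41.7 and 39.7. The RNA-binding protein Tarbp2 read 1118, 128, 108 and 292, and both were highest in that heart. In WT 2 Pam, an enzyme that amidates peptides, was low, at 826, 88.9, 305 and 530.1.

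The hearts of title number 541 were set against the other 2 with limma and Benjamini-Hochberg adjustment, because the titles divide the hearts this way. At an adjusted p of 0.05, 149 of 14625 probe sets (1.02%) were called on the values as deposited, 89 higher and 60 lower in the 541 hearts. After quantile normalization 1 was called (0.00684%). On the deposited values limma estimated no variation of the spread beyond its trend with level, so each probe set was judged by the typical spread at its level and not by its own, and a gene high in WT 3 alone could pass. Of the 149, both 541 hearts lay at least 1 log2 unit from the mean of WT 1 and WT 2 for 81, WT 3 alone did for 56 and WT 4 alone for 11. The hearts of the groups did not overlap for 133 of the 149, and for 5110 of all 14625 tested (34.9%). The count was 37 without WT 1, 33 without WT 2, 232 without WT 3 and 397 without WT 4, in fits where 1 side was a single heart assumed to vary like the others.

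The gene called under both scalings was B3galt6, a galactosyltransferase of proteoglycan linkers. It read 22.03, 13.4, 647 and 391, so both 541 hearts were high and did not overlap with the other 2. The difference was 3.96 log2 units (SE 0.41, limma adjusted p = 4.70e-18 as deposited and 0.0347 after quantile normalization). Its second probe set read 5.24, 9.14, 11.6 and 1.64 and did not show this.

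Among the other called genes that rose in both 541 hearts, Lancl2 read 66.5, 59.9, 793 and 299 at its highest probe set. No other of its 3 probe sets was called. Kcne3, a potassium channel subunit, read 15.6, 9.61, 76.4 and 202. Mt1, a metallothionein, read 1282, 538, 4007 and 2263, and Alas2 is given above. Lancl2 and B3galt6 were higher in WT 3 than in WT 4, and Kcne3 was higher in WT 4. Their limma adjusted p-values as deposited were 4.73e-07 for Lancl2, 3.04e-07 for Kcne3, 1.03e-05 for Mt1 and 1.79e-05 for Alas2. None of these 4 passed after quantile normalization.

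Of the called genes that fell, Myh7, Pln and Myl2 were low in WT 3, while WT 4 lay closer to WT 2. The calcium-binding protein gene Efhd1 read 64.2, 103, 5.88 and 7.04. Cd200 and the second probe set of Wnt5a (662, 303, 101.0 and 77.9) were also low in both 541 hearts. The highest probe set of Wnt5a, given above, was higher in WT 3 than in WT 2 and did not show this. Epb41l1, a membrane skeleton gene, read 91.0, 73.7, 16.5 and 1.91 at the called probe set, but 816, 533, 562 and 452 at its highest one. Zdhhc14 (105, 97.4, 18.8 and 14.4), Rgs5, a regulator of G-protein signalling in vessel wall cells (550.5, 219.6, 172 and 24.0), and Tesc (188, 80.2, 27.4 and 20.8) completed the named genes. WT 4 carries the same title number as WT 3, so genes that stood apart in WT 3 alone did not follow the number: Myl2 read 1728 in WT 3 and 6187 in WT 4.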

How the data were processed

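Total RNA of 4 hearts labelled Dbh+/+ was measured on 1 array each; the labels call them separate hearts. The authors deposited linear MAS5 signal intensities per probe set, in a value table and in an export that agree within 5e-07, with detection calls as letters and detection p-values deposited per probe set and array. Deposited quality figures gave the log intensity over log background ratio, the 5′/3′ ratios, the background intensity, the share Present as a fraction and the yield of amplified cDNA, a mass of another unit. The MAS5 version, scaling target, and the build behind the deposited probe annotation are not given in the sources used here. Gene symbols came from the platform annotation and sequences from the RefSeq promoter table.

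Signals were analysed as log2(signal + 16), an offset that shrinks differences of dim probe sets, and 64 control probe sets were left out. Ranks used the mean over hearts, correlations and SDs the 14625 probe sets Present in at least 3 hearts. Quantile normalization, median centring, other offsets, no filter and leaving out each heart were alternatives. The test of title number used limma 3.58.1 (R 4.3.3) with an intensity trend and Benjamini-Hochberg adjustment at 0.05; it was tested on simulated data. Python 3.11.15, pandas 2.3.3, numpy 2.4.6 and matplotlib 3.10.9 were used. The number of arrays limits the precision.

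Members and gene lists were chosen with earlier results of these data known. Named genes were the 40 highest, up to 4 highest members of each list, absent members of families, the 20 most and 10 least variable genes, up to 8 per heart with the greatest deviation, called genes of the title test, and Dbh. Other list members, such as Acta1, the skeletal troponins and light chains, Slc8a1, Hand1, Isl1, Bmp7 and the Y-linked genes, were named after their values were seen.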

Additional observations from a re-analysis of the deposited data

Results flagged for a closer look

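For 244 genes, nearly all of them named in the text, the gap between the most extreme heart and its nearest neighbour was divided by the range of the 4 hearts, and 21 passed Dixon's critical value for 4 samples at the 95% level. Chance gives about 1 in 20; over all 8247 genes Present in at least 3 hearts, 448 (5.43%) passed.

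The 244 include genes named for their deviation in 1 heart or for their spread over hearts, so the number that passed is not independent of that choice. Of the 21, 11 were high and 3 low in WT 3. High in WT 3 were the liver genes Ttr (0.961), Serpina6 (0.924), Serpina1b (0.914), Alb (0.906), Itih2 (0.898), Ambp (0.894), Apoa2 (0.862), Hnf4a (0.851), Apom (0.85) and Afp (0.83), and the positional gene Hoxc4 (0.889). Low in WT 3 were the ventricular genes Myl2 (0.898) and Myh7 (0.889) and the ligand Bmp5 (0.855). Low in WT 4 were Col3a1 (0.91) and Maoa (0.839).

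The other 5 were genes called absent, so their order lies within background signals. Gjd2 (0.977), Npr1 (0.894), Eomes (0.87) and Ckm (0.852) were highest in WT 1, and Nppc (0.838) was lowest in WT 2.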

How the results depend on the processing

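Of 45 other settings over 5 results, 34 kept the value within the spread between hearts or within 1.5 times the count. The median SD of 0.319 moved to 0.236 with an offset of 64, and the lowest correlation of 0.955 to 0.967 over all probe sets. Of the 100 highest probe sets, 34 stayed when 1 probe set a gene was ranked and 52 when probe sets with suffixes of shared probes were left out, a setting chosen after seeing the data; both drop probe sets by construction. The 149 calls of the title number fell to 1 with median centring, 1 with quantile normalization and 1 over all probe sets, where limma estimated a finite prior of 4.94, 4.41 and 10.1 degrees of freedom; the cause was not tested further. Leaving out each heart gave 33 to 397 calls (37 without WT 1, 33 without WT 2, 232 without WT 3 and 397 without WT 4), 13600 to 13936 Present probe sets, median SDs of 0.255 to 0.340, correlations of 0.955 to 0.965, and 96 to 98 of the 100 highest probe sets kept. At an unadjusted p under 0.05, limma gave 982 probe sets as deposited and 1264 after quantile normalization.

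No paired analysis was possible because the title test divides 4 hearts of 1 genotype, and no replicate number joins a heart of one side to a heart of the other. Signals near background have no dependable order: the median of probe sets Absent in all 4 hearts was 3.66. With 4 hearts, of which WT 3 and WT 4 stood apart in different genes, SDs of single genes are imprecise. Probe sets differ in affinity, probes are shared between loci, and the arrays carried different overall signals (median deviation from the other hearts of 0.30 in WT 1 and -0.31 in WT 4 on the log2 scale).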

Other observations

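Protein folding genes were present almost throughout. Of 12 measured chaperones 11 were present. Hspe1 and Hspd1, the mitochondrial chaperonin pair, stood at 3717 ± 484 and 2277 ± 312. Hspa5, the chaperone of the endoplasmic reticulum, stood at 3139.8 on average, and Hsp90aa1 at 3114 ± 294. Their median log2 SD over hearts was 0.199, against 0.323 over all 8247 genes. Their median gene rank was 642.5. The median SD of probe sets was 0.289 between 10 and 11 log2 units and 0.219 between 11 and 12. Whether chaperones differ in spread from genes of the same level was not tested.

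All 18 measured genes of the hypoxia list were present at E10.5, with a median gene rank of 960.5 out of 12393, where the median rank of all genes was 6197. Pdk1, which holds pyruvate back from the mitochondria, stood at 2858 ± 566, and Ddit4, an inhibitor of mTOR signalling, at 2277 ± 1093. Ero1a, an oxidase of the endoplasmic reticulum, stood at 2032 ± 443 and Bnip3, a receptor for mitophagy, at 1736 ± 777. Carbonic anhydrase Car9 was the lowest present member by signal, at 44.3 ± 22.3.

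Some members of the retinoid list were not detected. Rara, Rxrg and Rbp2 were absent, at 1.65 ± 0.663, 4.52 ± 3.11 and 5.74 ± 3.40. Aldh1a2, the retinoic acid synthesising enzyme of the embryonic epicardium, was present at 51.4 ± 18.5, Rarb at 92.2 ± 35.6 and Rdh10 at 122 ± 47.4. An Absent call concerns the probe set and does not show that the gene is silent.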
